A study of Mus musculus with 9 samples.

Results

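The genes described here are 9 markers of the ventral telencephalon and of the inhibitory neurons born there: Gsx2, Dlx1, Dlx2, Dlx5, Gad1, Gad2, Nkx2-1, Lhx6 and Isl1. They were chosen by name, as a check on dissection and regional identity, and were matched by symbol to 9 of the 57010 Ensembl genes in the count table. The samples were cortices dissected from single mouse embryos at E12.5, with 1 poly(A) library per embryo and 3 embryos in each of 3 genotypes. Control (Ctrl) embryos are labelled wild type, and whether they carry Cre is not stated. Cnot3 cKO embryos lose Cnot3, which encodes a subunit of the CCR4-NOT deadenylase, and Cnot3;Trp53 dcKO embryos also lose Trp53, which encodes p53. Deletion in both mutants uses Emx1-Cre, which is active in progenitors of the dorsal and not of the ventral telencephalon.

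The telencephalon of the embryo is divided into a dorsal part, the pallium, which becomes the cortex and makes glutamatergic neurons, and a ventral part, the subpallium, whose ganglionic eminences make GABAergic neurons. Gsx2 patterns progenitors of the lateral ganglionic eminence (LGE), and Nkx2-1 specifies the medial ganglionic eminence (MGE). Dlx transcription factors act downstream in nearly all subpallial lineages, Lhx6 marks interneurons born in the MGE, Isl1 marks striatal precursors, and Gad1 and Gad2 encode the enzymes that make GABA. Around this age the first interneurons begin to migrate tangentially from the subpallium into the cortex, so a cortex cut cleanly from the subpallium is poor in these transcripts.

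In 8 of the 9 embryos the 9 genes were close to undetected apart from Lhx6. The embryo labelled dcKO replicate 2 was the exception, with reads on Gsx2, Dlx1, Dlx2, Gad2 and Nkx2-1 that the other embryos hardly had or did not have. Lhx6 behaved differently from the rest: it was present in every embryo and was lowest of all in dcKO replicate 2. It was higher in every cKO embryo than in every Ctrl embryo. Groups of cKO and Ctrl that do not overlap, in either direction, were found for 57.2% of all tested genes. Neither edgeR nor DESeq2 called Lhx6 in the main test.

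Before these values are given, the library that carries most of them needs its own description. It is the deepest of the series, with 45073349 reads on genes against 21193798 to 34196798 in the other 8, yet it had the fewest genes with any read (18230 against 19057 to 21370) and the fewest with 1 to 5 reads (1264 against 1590 to 4163). The targeted genes also set it apart from its group. CPM are here reads per 1e+06 reads on the 13680 genes whose count exceeded 10 in each embryo, scaled by TMM, and 1 read is worth 0.0255 CPM in the deepest library and 0.0496 in the shallowest. Cnot3 stood at 107 ± 9.54 CPM in Ctrl (SD, n = 3), at 14.6 to 17.3 in cKO, and at 7.33, 48.2 and 19.0 in dcKO replicates 1, 2 and 3. Trp53 stood at 215 to 254 CPM in Ctrl, 164 to 167 in cKO, and 15.1, 110 and 20.6 in the dcKO embryos in the same order. The library labelled dcKO replicate 2 thus held more of each targeted transcript than the other dcKO embryos, while lying below every Ctrl embryo. Emx1 did not follow this pattern, at 43.8 to 120 CPM in Ctrl, 20.4 to 23.7 in cKO and 7.94, 17.7 and 80.9 in dcKO.

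**Figure D1:**
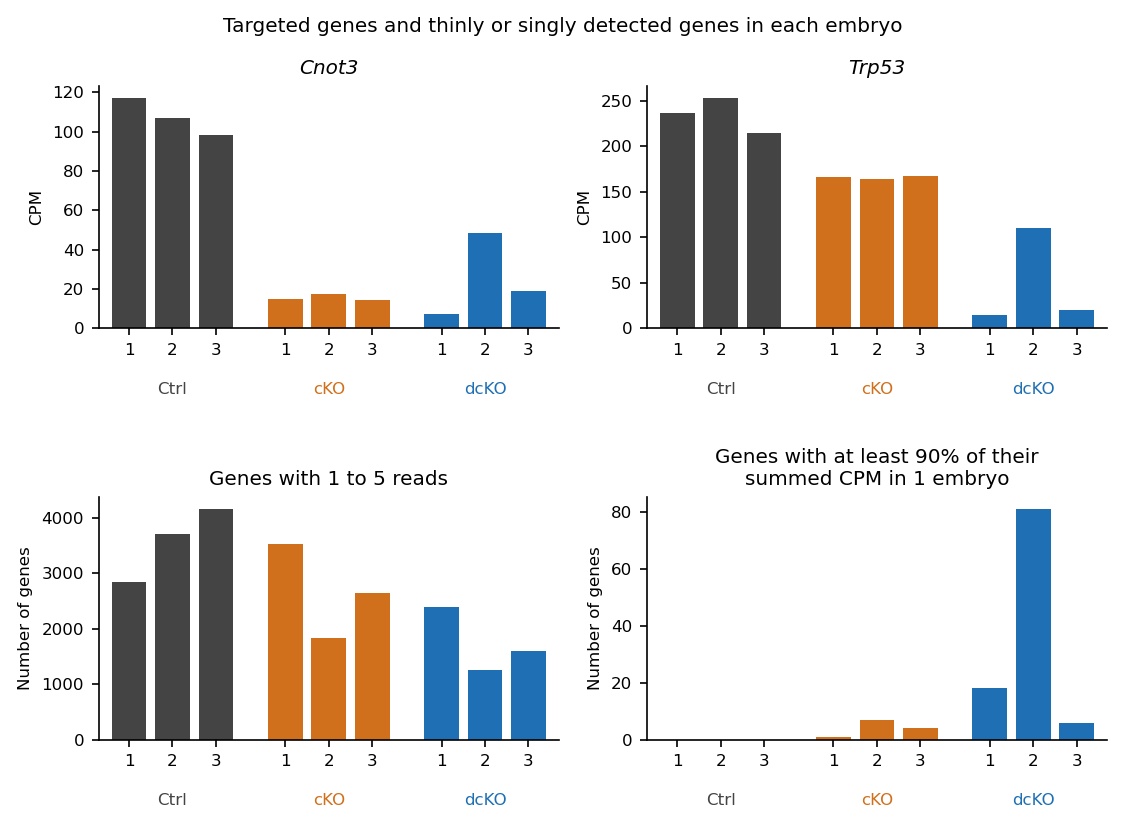
Cnot3 and Trp53 in CPM (top), and the number of genes with 1 to 5 reads and of genes with at least 18 reads in an embryo that makes up at least 90% of their summed CPM (bottom), for each of the 9 embryos. In dcKO replicate 2 the targeted genes lie between the Ctrl embryos and the other dcKO embryos, genes with 1 to 5 reads are fewest (1264), and genes seen almost only in that embryo number 81 against 0 to 18 elsewhere.

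Among the progenitor regulators, Gsx2 (ENSMUSG00000035946.8, chromosome 5 from 75075601 to 75077893) gave 96 reads in dcKO replicate 2 and no read in any other embryo. That is 2.45 CPM, 16.5 times the limit that 3 counts would give in the shallowest of the other libraries (0.149 CPM). Nkx2-1 (ENSMUSG00000001496.16, chromosome 12 from 56531958 to 56536908) showed the same pattern at a lower level. Its 18 reads (0.460 CPM) in dcKO replicate 2, against 0 in the other 8 embryos, stood at 3.09 times that limit. Neither ratio takes in the counting error of the reads in dcKO replicate 2. The exact interval of the count there was 1.99 to 2.99 CPM for Gsx2 and 0.273 to 0.727 CPM for Nkx2-1. These coordinates and those below are of GRCm38 in GENCODE M21, whereas the reads were aligned to mm39.

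The Dlx genes divided. Dlx1 (ENSMUSG00000041911.4, chromosome 2 from 71528113 to 71533981) had 1, 3 and 0 reads in Ctrl replicates 1 to 3, none in the cKO embryos, and 0, 47 and 0 in the dcKO embryos. Its neighbour Dlx2 (ENSMUSG00000023391.9), which lies 9.43 kb away on the opposite strand, had 8, 1 and 6 reads in Ctrl, 3, 0 and 7 in cKO, and 0, 88 and 2 in dcKO. In dcKO replicate 2 Dlx1 was at 1.20 CPM, 8.07 times the next highest embryo (95% exact interval of the ratio 2.60 to 40.5), and Dlx2 was at 2.25 CPM, 6.89 times the next highest (3.35 to 16.5). Dlx5 (ENSMUSG00000029755.11, chromosome 6 from 6877805 to 6882085), which is usually expressed with Dlx1 and Dlx2 in differentiating subpallial cells, did not follow: it had 1 read in Ctrl replicate 2, 2 in cKO replicate 2 and 1 in dcKO replicate 2. At 1 read in the deepest library, a level of Dlx5 like that of its relatives was not detected there.

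The enzymes of GABA synthesis divided in the same way. Gad2 (ENSMUSG00000026787.4, chromosome 2 from 22622205 to 22693874) had 3, 0 and 0 reads in Ctrl, 2, 0 and 0 in cKO, and 0, 80 and 6 in dcKO. The 80 reads of dcKO replicate 2 correspond to 2.04 CPM, 8.23 times the next highest embryo (3.62 to 23.1), which was dcKO replicate 3. Gad1 (ENSMUSG00000070880.11, chromosome 2 from 70553072 to 70602014), present with Gad2 in most GABAergic neurons, had 0, 2 and 0 reads in Ctrl, 1, 0 and 5 in cKO, and none in any dcKO embryo, dcKO replicate 2 included. The striatal precursor gene Isl1 (ENSMUSG00000042258.14, chromosome 13 from 116298281 to 116309689) had 7 reads in cKO replicate 3 (0.264 CPM) and none in the other 8 embryos. All intervals cover counting error only, since the reads carry no molecular identifiers and several reads may come from 1 molecule.

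**Figure D2:**
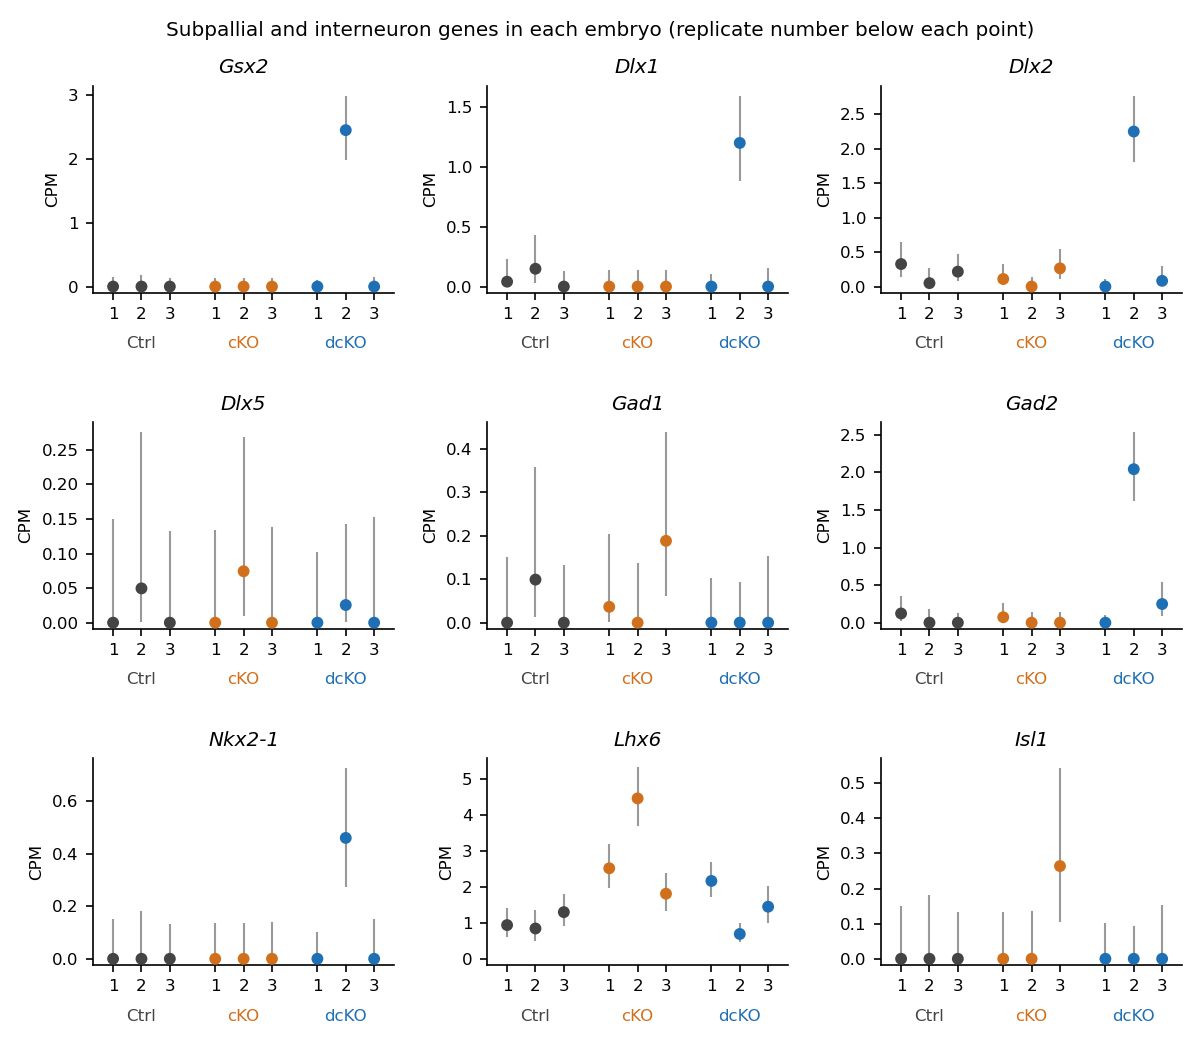
CPM of the 9 genes in each embryo, with replicate numbers on the horizontal axis, a separate linear scale per gene, and bars for the 95% exact Poisson interval of the count. Gsx2, Dlx1, Dlx2, Gad2 and Nkx2-1 are highest in dcKO replicate 2 and near 0 elsewhere, Dlx5, Gad1 and Isl1 stay under 0.3 CPM everywhere, and Lhx6 lies between 0.690 and 4.46 CPM.

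In all, 5 of the 9 genes had more CPM in dcKO replicate 2 than in the other 8 embryos summed. That state was shared by 2.2% of the 26872 genes with a read in any embryo. It was shared by 7.87% of those with as many reads in all as these 5 (18 to 115). This range was taken from the 5 after their values were seen, and their totals include the reads of dcKO replicate 2. Counted without Lhx6, the genes held 330 reads in dcKO replicate 2 and 0 to 19 in each other embryo. Their summed level was 8.43 CPM in dcKO replicate 2 and 0 to 0.716 CPM elsewhere, and none of the 8 had a read in dcKO replicate 1. Without dcKO replicate 2, Gsx2 and Nkx2-1 were at 0 in all 8 remaining embryos, Dlx1 had 4 reads in all, Dlx5 had 3, Gad1 had 8, Gad2 had 11 and Dlx2 had 27.

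The same library also held many other genes that the rest hardly had. Genes with at least 18 reads in an embryo and at least 90% of their summed CPM in it numbered 81 in dcKO replicate 2, against 0 in each Ctrl embryo, 1 to 7 in the cKO embryos, and 18 and 6 in the other dcKO embryos. That minimum is 0.460 CPM in dcKO replicate 2 and up to 0.893 CPM elsewhere, and with 0.893 CPM required in every embryo, a minimum set after the data were seen, the number was 31 in dcKO replicate 2 and 0 to 2 in the others. Of the 81, 19 are protein-coding, a number for which no share over all genes was computed. Beside Gsx2 and Nkx2-1 they include genes such as Rnase1 (66 reads), Cpne1 (45 reads), Adgrf4 (40 reads) and Cnga2 (36 reads). These others are no markers of the subpallium and were picked here after their values were seen. Gsx2 had the most reads of the 81, with 96 against a median of 30. The parts that the thin detection in this library, its intermediate Cnot3 and Trp53 and the tissue taken from this embryo have in the subpallial reads were not tested.

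Other genes of the subpallium were followed through 4 lists of 38 genes in all, of which 20 reached the read minimum. Among those below that minimum, some repeated the pattern of dcKO replicate 2 and some did not. Olig2, a progenitor gene of the MGE, had 7, 7 and 2 reads in Ctrl, 1, 0 and 13 in cKO, and 0, 56 and 0 in dcKO. Sp9, a transcription factor of the LGE, had 17 reads in dcKO replicate 2, 2 in Ctrl replicate 3 and 0 elsewhere. Dlx6os1, a long non-coding RNA antisense to Dlx6, had 26 reads in dcKO replicate 2, 14 in dcKO replicate 3 and 0 in the other 7 embryos. Against these, Gsx1, Vax1, Olig1 and Nkx6-2 had no read in any embryo, Dlx6 had 1 read in all, in Ctrl replicate 2, and the vesicular GABA transporter gene Slc32a1 had 10 reads in dcKO replicate 3 and none in dcKO replicate 2. Of the 10 genes in the list of subpallial progenitors and the Dlx network, 3 to 6 had a read in each embryo, and the highest number was in dcKO replicate 2.

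Antisense transcripts at the member loci gave a different picture from the members themselves. Dlx1as, which overlaps Dlx1 on the opposite strand, had 9, 13 and 8 reads in Ctrl (0.367, 0.645 and 0.288 CPM), 22, 6 and 21 in cKO (0.803, 0.223 and 0.792 CPM), and 68, 73 and 13 in dcKO (1.89, 1.86 and 0.538 CPM). It was therefore as high in dcKO replicate 1, which had no Dlx1 or Dlx2 read, as in dcKO replicate 2, and the dcKO and Ctrl values overlapped. Gad1os, antisense to the start of Gad1, had 0, 1 and 1 reads in Ctrl, 4, 9 and 7 in cKO, and 10, 4 and 14 in dcKO, with every mutant embryo above every Ctrl embryo. Neither passed the read minimum, and in a fit with no minimum edgeR's adjusted p for Gad1os was 0.430 in cKO and 0.348 in dcKO. The kit marks strand, but the strand setting used in counting is not given in the sources used here, so reads of Dlx1 and Dlx1as, or of Gad1 and Gad1os, may have been assigned to either partner.

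**Figure D3:**
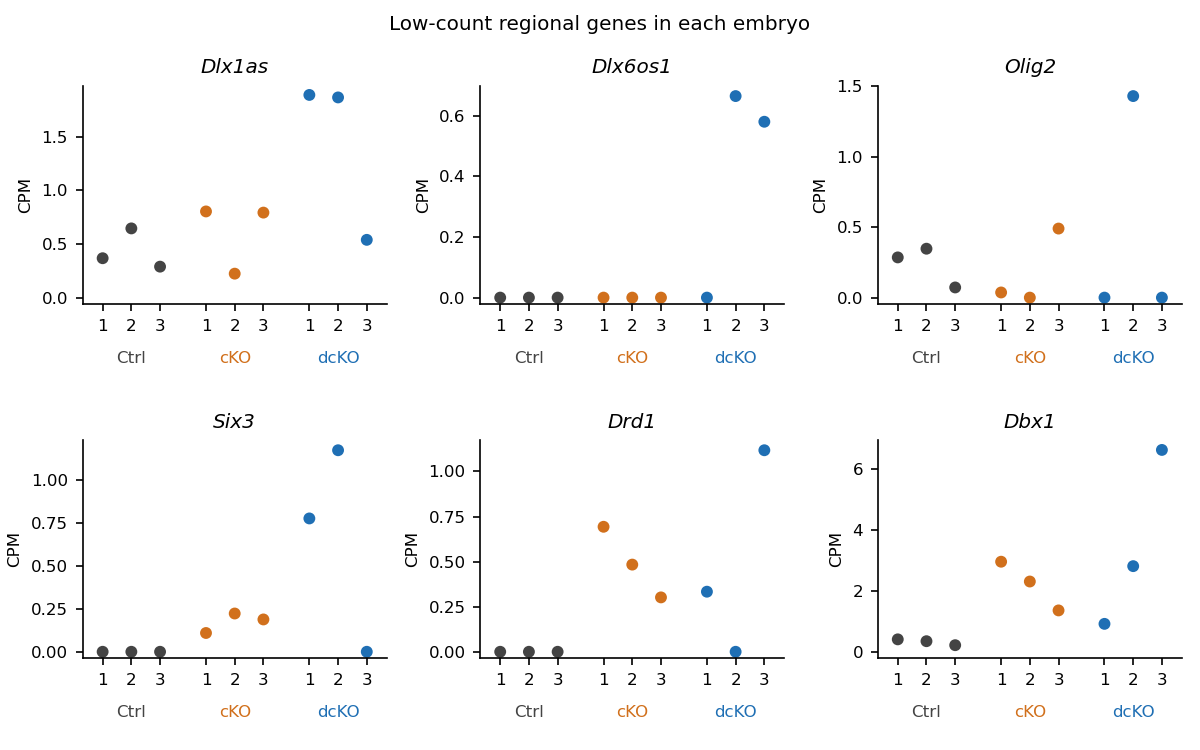
CPM of 6 regional genes with too few reads for the main test, in each embryo, on separate linear scales with replicate numbers on the horizontal axis. Olig2 is highest in dcKO replicate 2, Dlx6os1 is present in dcKO replicates 2 and 3, Dlx1as is highest in dcKO replicates 1 and 2, Six3 and Drd1 are at 0 in the 3 Ctrl embryos, and Dbx1 is higher in every mutant embryo than in every Ctrl embryo.

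Lhx6 (ENSMUSG00000026890.20, chromosome 2 from 36081953 to 36105408) was the only member above the read minimum throughout. Fitted with no minimum, edgeR called 1.44% of genes higher in cKO and 1.16% in dcKO. None of the other 8 was called in that way by edgeR or DESeq2 in any comparison. Against Ctrl, DESeq2 gave most of them no adjusted p. Between the mutants its lowest adjusted p was 0.846, for Gad2, and Dlx5 and Gsx2 had none. The lowest edgeR adjusted p against Ctrl was 0.132 for Gsx2 in dcKO (unadjusted p = 0.0117), followed by Gad2 in dcKO at 0.286. Between the mutants the unadjusted edgeR p of Dlx1, Gsx2 and Gad2 were 0.0250, 0.0100 and 0.0279, with an adjusted p of 0.853 for each. All or most of their dcKO reads were in dcKO replicate 2. Lhx6 had 23, 17 and 36 reads in Ctrl (0.938, 0.843 and 1.30 CPM), 69, 120 and 48 in cKO (2.52, 4.46 and 1.81 CPM), and 78, 27 and 35 in dcKO (2.17, 0.690 and 1.45 CPM). The cKO embryos lay above the Ctrl embryos without overlap, and the dcKO embryos spread from below the lowest Ctrl embryo to between the lowest and the middle cKO embryo. The group means were 1.03 ± 0.240 CPM in Ctrl, 2.93 ± 1.37 in cKO and 1.43 ± 0.738 in dcKO (SD, n = 3 each). In bulk tissue, more cells that express a gene and more of its RNA per cell cannot be told apart.

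In cKO Lhx6 was 2.84-fold higher than in Ctrl (log2 fold change 1.50, SE 0.51), with an edgeR quasi-likelihood adjusted p of 0.0994 after Benjamini-Hochberg adjustment over 13680 genes and a DESeq2 adjusted p of 0.0520. Calls required an adjusted p under 0.05 and more than 2-fold, and Lhx6 passed the fold but not the adjusted p of either tool. edgeR called 0.0146% of all genes in this comparison and DESeq2 8.83%. Its unadjusted edgeR p was 0.0140, and 27% of all tested genes had one under 0.05. The cKO and Ctrl groups did not overlap for 57.2% of the tested genes, and for Lhx6 the exact two-sided permutation test gave p = 0.10, the smallest that 3 against 3 embryos allow. With dcKO replicate 2 left out of the fit, the edgeR adjusted p for Lhx6 was 0.0381 at the same log2 fold change, and 8.34% of all genes were called.

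In dcKO the log2 fold change of Lhx6 over Ctrl was 0.47 (SE 0.51, edgeR adjusted p = 0.551, DESeq2 adjusted p = 0.619), and the groups overlapped. No member was called here, and neither was any gene of the table by edgeR (0%), whereas DESeq2 called 8.47% of genes, 29.2% had an unadjusted edgeR p under 0.05, and 26.8% had groups that do not overlap. Without dcKO replicate 2 the value was 0.81 (SE 0.46, edgeR adjusted p = 0.239), in a fit that called 9.72% of genes. Between the mutants, Lhx6 was lower in dcKO by a log2 fold change of -1.03 (SE 0.49, edgeR adjusted p = 0.889, DESeq2 adjusted p = 0.907), again with overlapping groups. In this comparison edgeR called 0.0146% of genes and DESeq2 0.381%, while 4.42% had an unadjusted p under 0.05 and 6.24% did not overlap. Both mutants were compared with the same 3 Ctrl embryos, so the 2 comparisons are not independent.

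The embryo codes carry a number that some Ctrl and mutant embryos share, whose meaning is not stated. Within these pairs Lhx6 was 4.76 times as high in cKO replicate 2 as in Ctrl replicate 1, 2.15 times as high in cKO replicate 3 as in Ctrl replicate 2, and 1.12 times as high in dcKO replicate 3 as in Ctrl replicate 3. With this number as a block the cKO log2 fold change was 1.71 (edgeR adjusted p = 0.0127), in a fit that called 14.5% of all genes. That value rests on 2 pairs of embryos with 1 residual degree of freedom, since 3 embryos have a number of their own and drop out.

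Reads of the other members beside Lhx6 were few and varied between embryos. In cKO, replicate 1 had 69 reads of Lhx6 with 3 of Dlx2, 2 of Gad2 and 1 of Gad1, replicate 2 had 120 with 2 of Dlx5, and replicate 3 had 48 with 7 of Dlx2, 7 of Isl1 and 5 of Gad1. In dcKO replicate 1, with 78 reads of Lhx6, no other member had a read. At these counts, close to the limit of detection, the cells that the Lhx6 reads came from were not tested. Per kilobase of exon the level in Ctrl was 0.214 ± 0.0499 RPKM for Lhx6, 0.0691 ± 0.0488 for Dlx2 and 0.0117 ± 0.0142 for Dlx1 (SD, n = 3). Dlx5, Gad2 and Gad1 followed below 0.01 RPKM, and Gsx2, Nkx2-1 and Isl1 were at 0. In this order only Lhx6 stood above its neighbour, Dlx2, by more than the spread of both. The dorsal gene Emx1 was at 35.6 ± 17.7 RPKM in the same embryos.

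Where the other genes of the subpallium could be tested, most did not pass. Of the 20 genes, edgeR called 0 in each comparison, with unadjusted p under 0.05 for 5 in cKO, 3 in dcKO and 4 between the mutants, and DESeq2 called 3, 2 and 0. Over all tested genes these shares were 27%, 29.2% and 4.42% at the unadjusted p and 8.83%, 8.47% and 0.381% by DESeq2, so the numbers at the unadjusted p in cKO and dcKO were no higher than in the background. The median log2 fold change of the 20 was -0.24 in cKO and 0.07 in dcKO, beside 0.01 and 0.11 over all tested genes.

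Of the 3 tested genes in the list of subpallial progenitors and the Dlx network, DESeq2 called 1. Sp8, a zinc finger factor of the dorsal LGE and olfactory interneurons that also patterns the medial cortex, was at 28.2 to 32.3 CPM in Ctrl, 6.33 to 13.5 in cKO, and 7.66, 35.7 and 9.81 in dcKO. In cKO it differed from Ctrl by -1.53 on the log2 scale (SE 0.54, edgeR adjusted p = 0.109, DESeq2 adjusted p = 0.0284). The dcKO value was -0.74 (edgeR adjusted p = 0.368) and without dcKO replicate 2, whose value lay above every Ctrl embryo, it was -1.76 (edgeR adjusted p = 0.0103).

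Of the 9 tested genes of the list for the MGE and migrating interneurons, DESeq2 called 1. Maf, a factor of MGE interneurons that several other cell types also use, was at 2.28 to 3.72 CPM in Ctrl, 4.90 to 9.63 in cKO and 2.36 to 3.97 in dcKO. On the log2 scale it differed from Ctrl by 1.16 in cKO (SE 0.38, edgeR adjusted p = 0.0917, DESeq2 adjusted p = 0.0277) and 0.10 in dcKO (edgeR adjusted p = 0.880). The chemokine receptors of tangential migration, Cxcr4 and Ackr3, were at 0.42 and 0.46 in cKO (edgeR adjusted p = 0.306 and 0.256). Microglial markers were higher beside Maf in 2 of the cKO embryos and lower than in Ctrl in dcKO, where Maf was not: their summed level over 4 genes was 27.3 to 35.3 CPM in Ctrl, 31.0 to 65.9 in cKO and 12.8 to 24.3 in dcKO, and Fcrls was called higher in cKO by DESeq2 (log2 fold change 1.24, adjusted p = 0.00648). The part of microglia in the value of Maf was not tested.

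In the striatal list of 10 genes, 5 were tested. Rarb, a retinoic acid receptor gene of striatal neurons, was at 1.43 to 2.28 CPM in Ctrl, 1.15 to 2.00 in cKO, and 0.972, 0.281 and 0.621 in dcKO. The difference from Ctrl in dcKO was -1.61 on the log2 scale (SE 0.49, edgeR adjusted p = 0.0731, DESeq2 adjusted p = 0.0280), and -1.24 without dcKO replicate 2 (edgeR adjusted p = 0.0737). Penk, the gene of an opioid peptide of striatal neurons, had the highest values of the 5 tested genes, 1.03 in cKO and 1.08 in dcKO (SE 0.46 and 0.45, edgeR adjusted p = 0.180 and 0.148), with every mutant embryo above every Ctrl embryo. Ebf1, a factor of striatal neurons, had the lowest value of the 5 in cKO (-0.46, edgeR adjusted p = 0.310). Below the read minimum, the dopamine receptor gene Drd1 was absent from the 3 Ctrl embryos and had 19, 13 and 8 reads in cKO and 12, 0 and 27 in dcKO. Six3, a factor of the early LGE, was likewise absent from Ctrl, with 3, 6 and 5 reads in cKO and 28, 46 and 0 in dcKO. Fitted with no minimum, DESeq2 called Drd1 in both mutants (adjusted p = 0.0223 and 0.0257) and Six3 in dcKO (adjusted p = 0.0159), in fits where 4.99% of genes in cKO and 4.34% in dcKO were called higher. edgeR called neither (adjusted p of Drd1 in cKO 0.0879). Drd1 and Six3 were picked for description after their values were seen.

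The only GABA-related gene called was Abat, which encodes the GABA-degrading transaminase and is not limited to neurons that make GABA. It was at 6.97 to 9.12 CPM in Ctrl, 21.7 to 29.7 in cKO, and 30.5, 10.9 and 22.9 in dcKO, with every mutant embryo above every Ctrl embryo. The log2 fold change was 1.69 in cKO and 1.44 in dcKO (SE 0.36 and 0.35), which DESeq2 called (adjusted p = 0.00037 and 0.00302) and edgeR narrowly did not (adjusted p = 0.0509 and 0.0526). Slc6a11, which encodes a GABA transporter, had values of -0.22 in cKO and -0.44 in dcKO (edgeR adjusted p = 0.828 and 0.615).

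**Figure D4:**
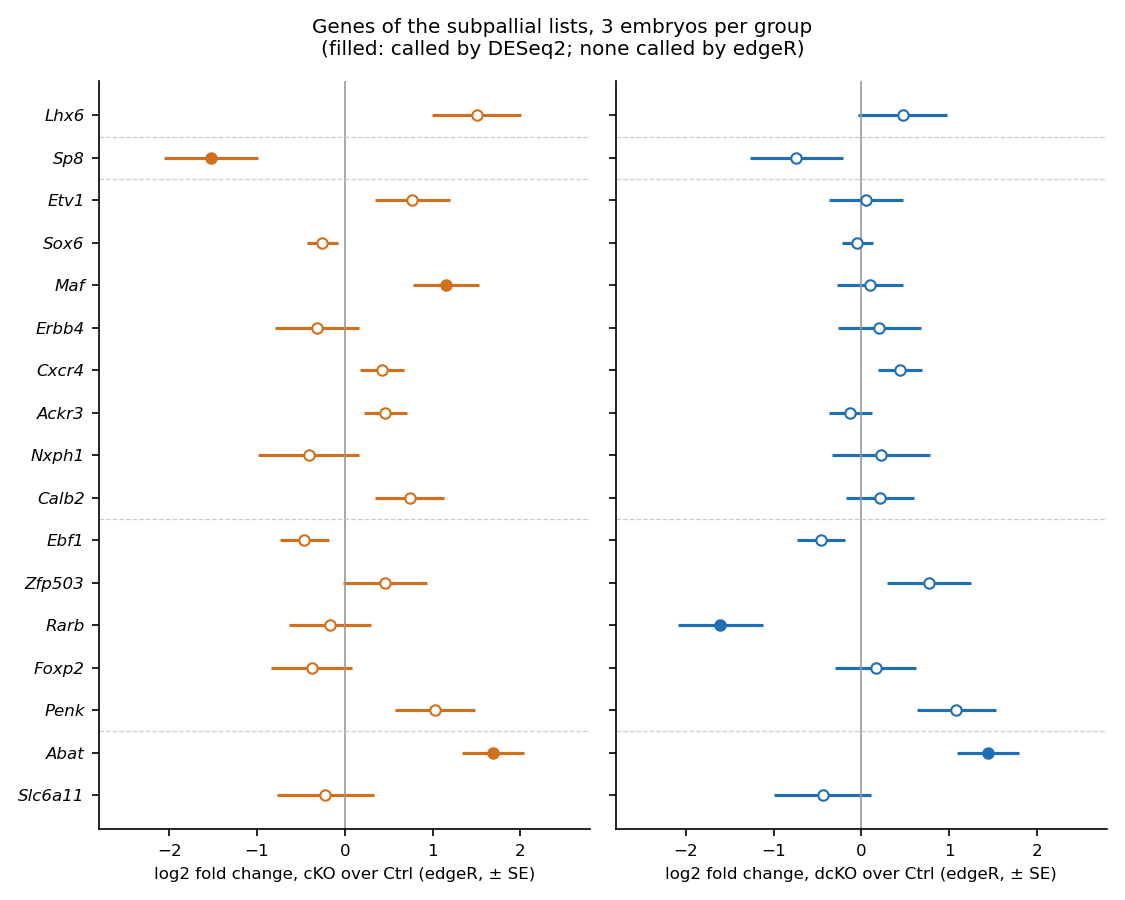
Log2 fold change over Ctrl with its SE for 17 tested genes (Lhx6 and genes of the other subpallial lists) in cKO (left) and dcKO (right), from edgeR with 3 embryos per group. Filled points were called by DESeq2 (Sp8, Maf and Abat in cKO, Rarb and Abat in dcKO), dashed lines separate the lists, and edgeR called none of those drawn.

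Regional identity was also read from summed levels. The 11 genes of the dorsal pallium, which include Emx1, Pax6, Eomes and Tbr1, summed to 1396 to 2067 CPM in Ctrl, 1200 to 1421 in cKO and 1270 to 1861 in dcKO, and all 11 had reads in every embryo. The 9 subpallial and interneuron genes summed to 0.0690% to 0.108% of that level in Ctrl, 0.193% to 0.336% in cKO, and 0.171%, 0.490% and 0.105% in dcKO replicates 1, 2 and 3. Outside dcKO replicate 2 this share was mostly Lhx6, and without Lhx6 it was 0.453% in dcKO replicate 2 and between 0% and 0.0597% in the other 8. In dcKO replicate 2 the dorsal sum of 1861 CPM was the highest of the mutants and within the Ctrl range. DESeq2 called 2 of the 11 dorsal genes in cKO, where it called 8.83% of all genes, and both were lower, Emx1 (log2 fold change -1.85, adjusted p = 0.0298) and Lhx2 (-1.19, adjusted p = 0.00164), while edgeR called neither (adjusted p = 0.130 and 0.0514). Others had values above 0 and were called by neither tool, among them Neurod6 (0.82, edgeR adjusted p = 0.118) and Slc17a6 (0.48, edgeR adjusted p = 0.228), genes of glutamatergic neurons.

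**Figure D5:**
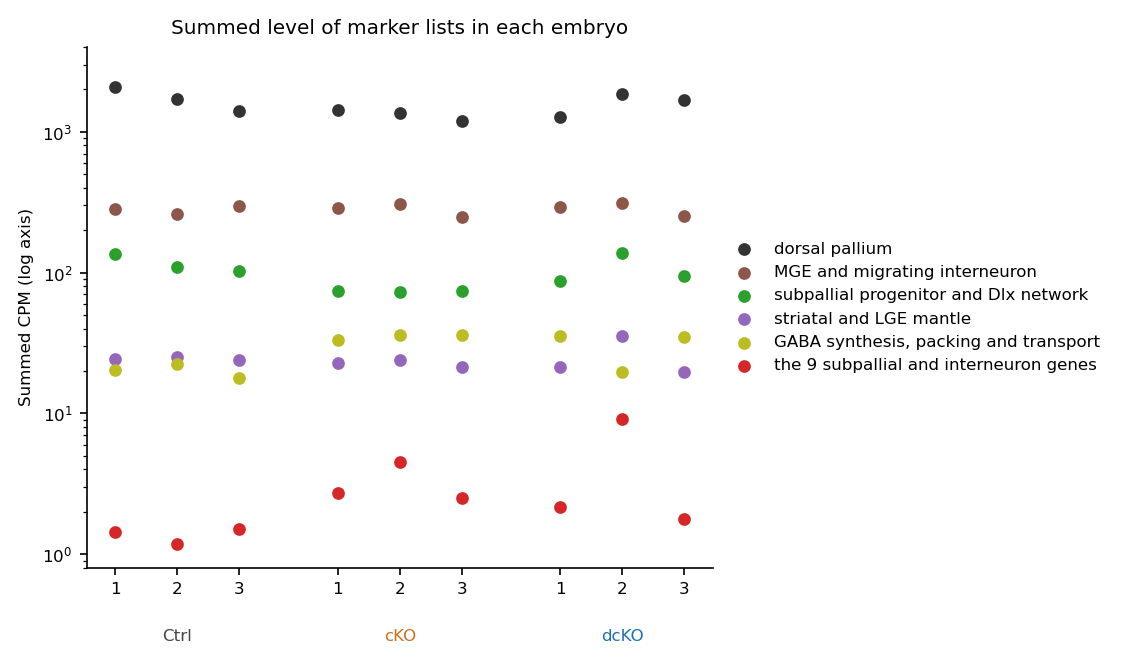
Summed CPM, on a log axis, of the dorsal pallium list, 4 lists of other subpallial genes and the 9 subpallial and interneuron genes in each embryo. The list for the MGE and migrating interneurons summed to 250 to 310 CPM, of which Sox6 alone gave 148 to 227. In the same list Lhx8, Nkx6-2, Gbx1 and Sst were each at 0.580 CPM or less in every embryo. The dorsal list lies between 1200 and 2067 CPM in all embryos, and the 9 genes lie between 1.19 and 1.51 CPM in Ctrl, 2.53 and 4.54 in cKO, and at 2.17, 9.12 and 1.78 in dcKO replicates 1, 2 and 3.

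Genes of neighbouring tissue were counted in the same way. Hypothalamic, eye and diencephalic markers did not follow the subpallial reads: Six6, Otp and Nkx2-2 had no read in any embryo, and only Tcf7l2 of that list of 9 had a read in dcKO replicate 2. At the boundary of pallium and subpallium, Dbx1, a progenitor gene of the ventral pallium and septum, had 10, 7 and 6 reads in Ctrl, 81, 62 and 36 in cKO, and 33, 110 and 160 in dcKO. It fell under the read minimum through its Ctrl embryos, and a gene kept out in that way had to be low there. Fitted with no minimum it was called by edgeR in cKO (log2 fold change 2.70, SE 0.73, adjusted p = 0.0416) and dcKO (3.31, SE 0.74, adjusted p = 0.0223), where 1.44% and 1.16% of genes were called higher. Dbx1 was picked after its values were seen. In the same list of 4, Sfrp2, a secreted Wnt modulator of that boundary, was lower in every cKO embryo than in every Ctrl embryo, at a log2 fold change of -0.93 (edgeR adjusted p = 0.0788, DESeq2 adjusted p = 0.0163) that did not reach 2-fold, and Tgfa was at 0.31 (edgeR adjusted p = 0.592).

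The sequences at the starts of the members were compared with those of all genes. RefSeq windows of 300 bases on GRCm38.p6, from 250 before to 50 after the transcription start, were given for 8 members (10 windows, 3 of them for Lhx6), and Dlx5 had no entry. None held TAATTA on the strand of the gene, a core letter sequence bound by Dlx and other homeodomain proteins, which reads the same on both strands, and 5.29% of all 32851 windows did. Member windows held 11 to 37 CG dinucleotides (median 17) against a median of 7 over all windows. Of all windows, 31.4% held at least 17. The letters TATAAA, searched on the strand of the gene in the 250 bases before the start, occurred in 1 member window, that of Gsx2, and in 7.59% of all windows. The stretch is shown because Gsx2 had the most reads of the genes found almost only in dcKO replicate 2, with TATAAA in capitals at 38 bases before the start, at chr5:75075551-75075580 on the forward strand of GRCm38.p6.
Gsx2: cgcggtgggggcTATAAAatcctggagccg

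By the likeness of their values to Lhx6, the only member with enough reads for such a profile, the 10 nearest genes over the 9 embryos were Ndst3, Ttc25, Dnajb1, Irf1, Fah, Afap1l2, Suox, Stat2, Unc5c and Zc3hav1, with Pearson r of log2 CPM from 0.962 to 0.925. After the genotype means were subtracted the nearest were Fbh1, Nrsn1, Ppargc1a, Irf9, Tcaim, Pcdhb22, Plekha5, ENSMUSG00000118434.2, Rab27a and Tmem120b (r from 0.972 to 0.939). None of the 20 is a gene of the subpallial lists. The ranking was unstable: with 1 embryo left out, only 1 to 6 of the first 10 and 0 to 5 of the second 10 returned. The 9 points share libraries of unequal depth and only 17 to 120 reads of Lhx6.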

How the data were processed

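The authors trimmed reads with cutadapt, aligned them to mm39 with STAR and assigned them to genes with featureCounts, and deposited raw counts per gene for 9 libraries made with a stranded poly(A) kit. Tool versions, the annotation release and the strand setting are not given in the sources used here. Every deposited column was used. Genes with more than 10 reads in each embryo (13680 of 57010) were tested with edgeR 4.0.16 (TMM, quasi-likelihood, all 9 embryos in 1 model, Benjamini-Hochberg adjustment) in R 4.3.3, and called at an adjusted p under 0.05 and more than 2-fold. DESeq2 1.42.0 and limma 3.58.1 were alternatives, and scripts were tested on simulated data. p-values measure the spread between embryos. RPKM use exon lengths of GENCODE M21. Intervals are exact at 95%, and a count of 0 allows 3 counts. Single values were compared with exact two-sided permutation tests in SciPy 1.17.1. All members were named, as were genes of the subpallial lists called by either tool or with the largest or smallest change of their list, and the 10 genes most like the member profile. From the other lists only genes a result turns on were named. The members and lists were chosen with earlier results of these data known. A few genes of the lists enter the counts but are not reported here.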

Additional observations from a re-analysis of the deposited data

How the results depend on the processing

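Among 31 alternative fits, Lhx6 was higher in cKO than in Ctrl in each, by 1.06 to 1.75 on the log2 scale (edgeR, DESeq2 and limma adjusted p from 0.00245 to 0.298), 2 of them without an adjusted p, and 8 called it, so that the number of the 9 genes called rose from 0 to 1. Those 8 fits called 8.34% to 14.5% of all genes, against 0.0146% in the fit reported. These were edgeR without dcKO replicate 2 (1.50) or without dcKO replicate 3 (1.50), DESeq2 without dcKO replicates 1, 2 or 3 (1.50, 1.50 and 1.48), edgeR on only the embryos compared (1.50), the embryo code number as a block (1.71) and limma voom with sample quality weights (1.43). An unadjusted p under 0.05 also gave 1. In dcKO it was called in none of the fits (lowest adjusted p 0.120), and ranged from -0.0015 under DESeq2 without dcKO replicate 1 to 1.00 under the GC correction. Leaving out 1 embryo at a time moved it between 1.07 and 1.75 in cKO, 0.03 and 0.81 in dcKO and -1.47 and -0.59 between the mutants with edgeR, and between 1.06 and 1.75, -0.0015 and 0.78, and -1.50 and -0.61 with DESeq2.

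Labels give the groups the same replicate numbers without saying what they share. Deviations of same-numbered embryos correlated at -0.169 on average (9 pairs, -0.537 to 0.126) and those of others at 0.0836 (18 pairs). With the replicate block Lhx6 was at 1.51 in cKO, 0.44 in dcKO and -1.07 between the mutants (edgeR adjusted p = 0.192, 0.661 and 0.992). DESeq2 with the replicate block called 1 other subpallial gene higher and 1 lower in cKO and 1 higher in dcKO.

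Other subpallial genes called higher in cKO numbered 0 in edgeR, 2 in DESeq2, in limma, in the code number block and with only the embryos compared, 1 with no filter, the GC correction or upper-quartile factors, and 3 in DESeq2 with no filter and at the unadjusted p. Those called lower in cKO numbered 1 in DESeq2, with or without the filter, in limma, in the code number block, with no filter and with only the embryos compared, and 2 at the unadjusted p. In dcKO 1 was higher in DESeq2, limma and with no filter, 3 in DESeq2 with no filter and 2 at the unadjusted p. Those lower in dcKO numbered 1 in DESeq2, with or without the filter, and at the unadjusted p, and 2 in limma. Under the code number block cKO is set against Ctrl in 2 pairs of embryos and dcKO in 1, with 1 residual degree of freedom. Its counts are therefore given for cKO only. Between the mutants, which share no code number, the unadjusted p gave 1 higher and 3 lower. Leaving out 1 embryo gave 0 to 2 in each of these counts for cKO and dcKO, except 0 to 1 for those lower in cKO, and 0 to 1 between the mutants.

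Leaving out 1 embryo, Rarb in cKO ranged from -0.34 to 0.044 with edgeR, reversed without cKO replicate 2 (0.044, DESeq2 0.032). Maf in dcKO ranged from -0.088 to 0.29, reversed without Ctrl replicate 1 (-0.088, DESeq2 -0.10) and dcKO replicate 1 (-0.046, DESeq2 -0.071). It also reversed in DESeq2 without dcKO replicate 2 (-0.010), under the GC correction (-0.16, and -0.15 with the replicate block) and with no filter (-0.0019). Under the code number block, where dcKO is set against Ctrl in 1 pair of embryos, it was at -0.52. Between the mutants, Sp8 ranged up to 1.15, without dcKO replicate 1, and reversed without dcKO replicate 2 (-0.24, DESeq2 -0.27) and in limma (-0.14). Abat there ranged from -0.59 to 0.068, and reversed without dcKO replicate 2 (0.068, DESeq2 0.040) and in limma (0.18). By edgeR, Sp8 in cKO was called without dcKO replicate 2 or 3, Maf in cKO and Rarb in dcKO without dcKO replicate 3, and Abat without any of the dcKO embryos in cKO and without dcKO replicate 2 or 3 in dcKO. The summed level of the 9 genes was 1.25 above Ctrl on the log2 scale in cKO and 1.66 in dcKO, against 0.091 and 0.67 by mean log2 CPM, and 0.52 in dcKO without dcKO replicate 2. Lhx6 in Ctrl was at 0.295 RPKM by its longest transcript. Of the 10 genes most like Lhx6, 1 to 6 returned without 1 embryo, and 0 to 5 after subtraction of genotype means. DESeq2 with embryos left out, with the replicate block and with no filter, and the summed level without dcKO replicate 2, were chosen after seeing the data. The cause of these shifts was not tested. Depth limits the other 8 genes, for which 3 counts correspond to 0.0766 to 0.149 CPM.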

Other observations

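Marker genes of tissues at the edge of the dissected cortex were followed in the same way. Of the 4 tested genes of the list for the cortical hem and choroid plexus, edgeR called 0 in either mutant, with an unadjusted p under 0.05 for 2 in each, and DESeq2 called 2 in each. The uncalled genes were Wnt8b (log2 fold change 0.59 in cKO and 0.50 in dcKO) and Msx1 (-0.22 and -0.09). The 6 genes of the list summed to 79.5 to 105 CPM in Ctrl, 106 to 324 in cKO and 143 to 349 in dcKO. Ttr, the transthyretin gene of choroid plexus, had no read in Ctrl, 162, 292 and 870 reads in cKO, and 2050, 134 and 149 in dcKO. Lmx1a, a hem regulator, was called higher by DESeq2 in cKO (log2 fold change 2.04, DESeq2 adjusted p = 0.00185, edgeR adjusted p = 0.0562) and in dcKO (1.71, DESeq2 adjusted p = 0.0107, edgeR adjusted p = 0.0710). Rspo2, a Wnt agonist of the hem, was called likewise, at 3.27 in cKO and 3.22 in dcKO (DESeq2 adjusted p = 0.0176 and 0.0198, edgeR adjusted p = 0.0677 and 0.0660). The highest Ttr count was in dcKO replicate 1, where 8 of the 9 subpallial and interneuron genes had no read.

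Meningeal and mesenchymal markers summed to 602 to 663 CPM in Ctrl, 348 to 528 in cKO and 250 to 392 in dcKO. Col3a1 alone was at 410 to 466 CPM in Ctrl and 171 to 283 in dcKO. DESeq2 called Col1a1 and Col3a1 lower in dcKO (log2 fold change -1.86 and -1.04), and edgeR called 0 of the 4 tested genes. Foxc1 and Lum were called by neither tool. They were at 8.33, 15.5 and 6.46 CPM and at 55.7, 70.6 and 30.1 CPM in dcKO, against 8.89 to 10.2 and 43.2 to 67.3 in Ctrl. Endothelial markers stood at 168 to 222, 165 to 225 and 106 to 115 CPM in the same order. Of these 4 genes DESeq2 called 1 lower in dcKO, Cdh5 (-1.11), and edgeR called 0. Erythroid genes summed to 6101 to 8575, 7548 to 11486 and 4138 to 5640 CPM. Cajal-Retzius genes summed to medians of 128, 160.4 and 102.3 CPM, genes of the pallial-subpallial boundary to 28.0 to 43.7, 20.8 to 27.1 and 21.2 to 39.9, hypothalamic, eye and diencephalic genes to 13.9 to 14.4, 7.88 to 12.1 and 7.66 to 12.8, and peripheral sensory neuron genes to 0.649 to 1.51, 0.792 to 0.967 and 0.4997 to 0.817. The part of any of these in the subpallial values was not tested.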
